A study of Homo sapiens with 24 samples.

Results

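Knockdown of SLC25A51 in cells that received no toxin was examined by comparing 3 libraries that carried a short hairpin RNA against the gene (shMCART1, from MCART1, an older symbol of SLC25A51) with 3 libraries that carried a scrambled hairpin (shScramble). The members are the genes that reached 1 TPM or more in at least 3 of these 6 libraries, on the log2(TPM + 1) scale. They number 13893 of the 63241 gene identifiers in the deposited table, and 13819 of them have a gene symbol. TPM is a transcript abundance corrected for transcript length and scaled to 1 fixed total in every library, so each change below is relative to the rest of the same library.

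The series holds 24 libraries of human cells in 8 groups of 3: shScramble, shMCART1, oeNC (a control for overexpression) and oeMCART1 (overexpression of the same gene), each without treatment and after 24 h in 0.5 mM MPP+. Both groups compared here carry a hairpin construct, were given no MPP+ and bear the line name SH-SY5Y, a human neuroblastoma line taken from a bone marrow metastasis. Polyadenylated RNA was sequenced from strand-specific libraries. The labels give neither the hairpin's sequence nor the time since its delivery, and they do not say whether the 3 replicates of a group were separate cultures or clones, so the p-values measure only the spread between these libraries. In RNA from whole cultures, fewer cells of a type and less RNA per cell cannot be told apart. TPM keep no depth, so the number of reads behind each value is unknown.

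SLC25A51 sits in the inner mitochondrial membrane and moves cytosolic NAD+ into the matrix. Matrix NAD+ accepts electrons from the dehydrogenases of the tricarboxylic acid cycle and of fatty acid oxidation, and complex I of the respiratory chain takes them from NADH again. SLC25A52 is its near-identical paralogue. MPP+, the toxic metabolite of MPTP, inhibits complex I and serves in culture to model the neuron loss of Parkinson disease; it enters neurons through the dopamine transporter.

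The targeted gene was lower in every shMCART1 library. SLC25A51 (ENSG00000122696; GRCh38, chromosome 9, 37879400 to 37904353, minus strand) stood at 10.52, 11.08 and 11.25 TPM in the shScramble libraries and at 6.91, 9.45 and 5.47 TPM in the shMCART1 libraries. The groups do not overlap, but shMCART1 replicate 2 lies close to the controls and the 3 knockdown libraries are spread wider than the 3 controls. The mean fell from 10.9 ± 0.382 (SD, n = 3) to 7.28 ± 2.01 TPM (SD, n = 3), that is to 66.5% of the control. The log2 change was -0.56 ± 0.14 (SE; limma, Benjamini-Hochberg adjusted p = 0.0176). An exact two-sided permutation test gave p = 0.1, the smallest that 3 libraries against 3 allow. The call is lost without shScramble replicate 2 (log2 change -0.55, adjusted p = 0.0754) and without shMCART1 replicate 3 (-0.39, adjusted p = 0.0566). The paralogue SLC25A52 was listed at 0 to 0.06 TPM in all 6 libraries and was not tested. The pseudogenes PAICSP1 and TMX2P1 lie on the opposite strand within SLC25A51, and whether counting used the strand is not given in the sources used here.

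Of 13 markers listed for the neuroblastoma lineage, 7 reached the level for testing. HAND2 and ISL1, transcription factors of the lineage, stood at 2.93 to 4.44 and 2.07 to 4.32 TPM, GATA3 at 4.13 to 5.90 TPM, and the neuronal proteins NCAM1 and GAP43 at 4.40 to 6.45 and 7.20 to 11.09 TPM. Other defining markers were at or near 0. TH was listed at 0 in all 6 libraries, and PHOX2A and DBH reached at most 0.09 and 0.07 TPM. PHOX2A is a transcription factor of sympathoadrenal cells, and TH and DBH are enzymes of catecholamine synthesis. The dopamine transporter SLC6A3 and the noradrenaline transporter SLC6A2 were listed at 0 as well. The list's summed level ran from 30.4 to 34.3 TPM in shScramble and from 23.8 to 28.6 TPM in shMCART1. The epithelial keratins KRT8 and KRT18 stood at 77.4 to 115.0 and 80.2 to 113.6 TPM. The leukocyte marker PTPRC was listed at 0, and the fibroblast markers COL1A2 and THY1 reached at most 0.01 TPM. The absence of the catecholamine enzymes goes against the neuroblastoma label in all 6 libraries, other markers of the list are present, and the libraries are called below by their group names alone. The growth protocol also names HEK293T, a human embryonic kidney line; the identity of the cells was not tested.

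The 6 libraries also differed along the GC content of the transcripts, and this bears on every count that follows. Across the 13425 members with a transcript in GENCODE 29, the log2 change rose with GC content (Spearman's rho 0.79, across genes of the same 6 libraries). The genes were put in 5 bins of equal size by GC content. In the bin with the lowest, 28.6% to 41.3%, the median change was -0.65 and 72.0% of the genes were called lower. In the bin with the highest, 58.4% to 76.8%, the median was 0.26 and 29.3% were called higher. shScramble replicate 2 leaned towards AT-rich transcripts (rho of its deviations from the mean of all 12 untreated libraries with GC, -0.67). All shMCART1 libraries leaned towards GC-rich ones (0.73, 0.535 and 0.80 for replicates 1, 2 and 3), while shScramble replicates 1 and 3 stood at -0.10 and -0.03. The lean thus runs with the group and cannot be told apart from the knockdown by design. Results are therefore given both for the deposited values and with each library's trend on GC content removed, called trend-removed below.

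Of the 13893 genes, 5171 (37.2%) passed an adjusted p of 0.05 in the deposited values, 1329 higher (9.57%) and 3842 lower (27.7%) in shMCART1. The median change over all genes was -0.14. With the trend removed, 1551 of 13425 genes passed (11.6%), 676 higher (5.04%) and 875 lower (6.52%), and 4065 of the 5098 genes called in the deposited values and with a known GC content were no longer called. Median-of-ratios scaling moved the median of all genes to 0.02, the number called to 6028 (43.4%) and the split to 2922 higher (21.0%) and 3106 lower (22.4%). The counts that pass the adjusted threshold rest on single libraries. Without shScramble replicate 2 the deposited values gave 2 called genes and the trend-removed values 92. At an unadjusted p under 0.05 (limma) there were still 5031 and 3104 genes, against 7036 and 4270 with all libraries, and the deposited median change was -0.15. Without shMCART1 replicate 1 the deposited and trend-removed values gave 2677 and 525 called genes, and without shMCART1 replicate 3 1241 and 260. With only the 6 libraries in the fit, 1788 genes passed in the deposited values and 5 with the trend removed.

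**Figure D1:**
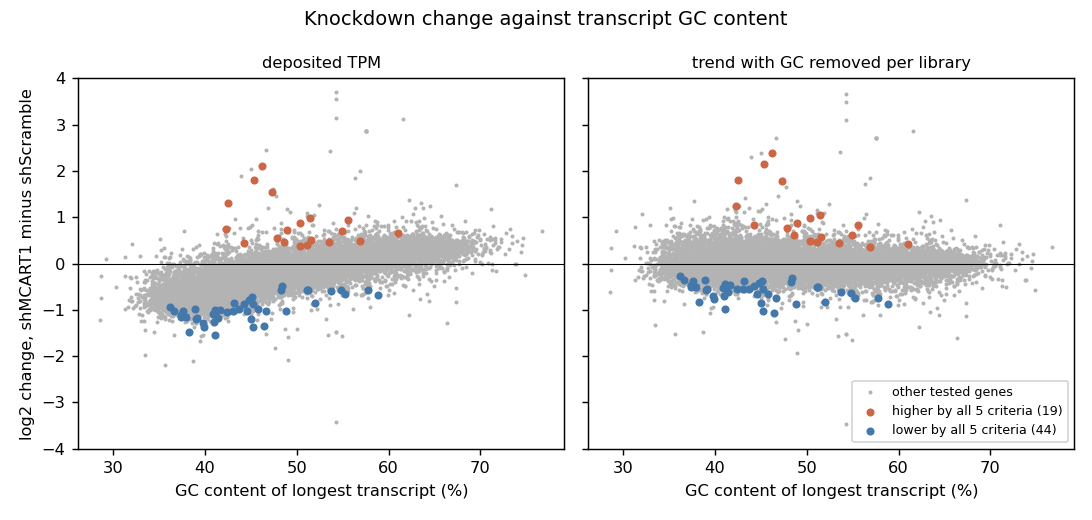
Log2 change of each member (vertical axis, shMCART1 minus shScramble) against the GC content of its longest transcript (horizontal axis, percent), for the deposited TPM on the left and after removal of each library's trend on the right. Each grey point is a gene; the 44 blue and 19 orange points are the genes lower and higher by all 5 criteria given in the text, and the slope of the grey cloud on the left, from a median of -0.65 in the lowest of 5 bins to 0.26 in the highest, is absent on the right.

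A core of 63 genes was called under each of 5 conditions: in the deposited values, with the trend removed, under median-of-ratios scaling, with no overlap between the 2 groups, and with the trend removed and shScramble replicate 2 left out. The last condition was added after the data had been seen. The core holds 44 lower genes (0.317% of all tested) and 19 higher genes (0.137%). Of the core, 8 of the 44 lower and 10 of the 19 higher genes have a GC content above 50%. The median GC content was 43.4% in the lower and 50.3% in the higher core genes, against 49.0% over all genes. The lower core genes thus lean towards AT-rich transcripts, the end of the GC range where the deposited changes were lowest. In the deposited values without shScramble replicate 2, the adjusted p of limma exceeded 0.05 for all except CA2 and PHEX-AS1 (median 0.0684, highest 0.0811). The direction of the 63 changes is fixed there by the condition of no overlap, so it is no further check. With the trend removed and only the 6 libraries in the fit, CA2, SPARC, PHEX-AS1 and ADAMTS1 were the 4 core genes that passed.

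Of the 19 higher core genes, 14 have a gene symbol. Among these 14, SPARC had the largest log2 change in the deposited values (1.55), while with the trend removed PHEX-AS1 (1.80) stood beside it (1.79). The identifiers ENSG00000277859 and ENSG00000256364, which have no symbol, changed by 2.11 and 1.81. SPARC encodes osteonectin, a secreted matrix glycoprotein that binds collagen and calcium, and it lies on chromosome 5 (GRCh38, 151661096 to 151687165, minus strand). Its level was 4.31, 4.91 and 3.52 TPM in shScramble and 13.72, 18.25 and 11.64 TPM in shMCART1. Every knockdown library stood well above every control. The log2 change was 1.55 ± 0.19 (SE; limma, adjusted p = 0.0123), 1.79 with the trend removed (adjusted p = 9.51e-05), and 1.64 without shScramble replicate 2 (adjusted p = 0.0569).

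CA2 encodes carbonic anhydrase 2, the cytosolic enzyme that interconverts carbon dioxide and bicarbonate. It stood at 274.5, 295.9 and 242.1 TPM in shScramble and at 119.6, 133.7 and 100.9 TPM in shMCART1. The lowest control was above the highest knockdown library by a wide margin, and the spread within each group was small. The log2 change was -1.20 ± 0.10 (SE; limma, adjusted p = 0.00105), -0.84 with the trend removed (adjusted p = 9.51e-05) and -1.13 without shScramble replicate 2 (adjusted p = 0.00857).

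PHEX-AS1, a noncoding RNA antisense to the phosphate-regulating endopeptidase gene PHEX (reads of the pair may be uncertain, since strand use in counting is not stated), was listed at 0, 0.07 and 0.07 TPM in shScramble and at 1.74, 1.63 and 1.44 TPM in shMCART1. The knockdown libraries agree closely, at a low level. The log2 change was 1.31 (limma, adjusted p = 0.00105), on a scale that understates changes of low genes. ADAMTS1, a secreted metalloprotease that cleaves matrix proteoglycans, rose from 51.22, 54.11 and 48.12 TPM to 69.77, 82.05 and 61.24 TPM. Its groups do not overlap, and the log2 change of 0.46 became 0.63 with the trend removed (limma, adjusted p = 0.0135 and 0.00447). CCN1, a matricellular protein and a target of YAP, was higher by 0.39 (adjusted p = 0.0162). HBE1, the embryonic epsilon chain of haemoglobin, stood at 1.56, 1.57 and 2.16 TPM in shScramble and at 4.77, 4.22 and 4.42 TPM in shMCART1. Every knockdown library had more than the highest control. Its log2 change was 0.99 (limma, adjusted p = 0.0123) and 1.05 with the trend removed (adjusted p = 0.00455). These core genes, other than SPARC, were picked after their values were seen.

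**Figure D2:**
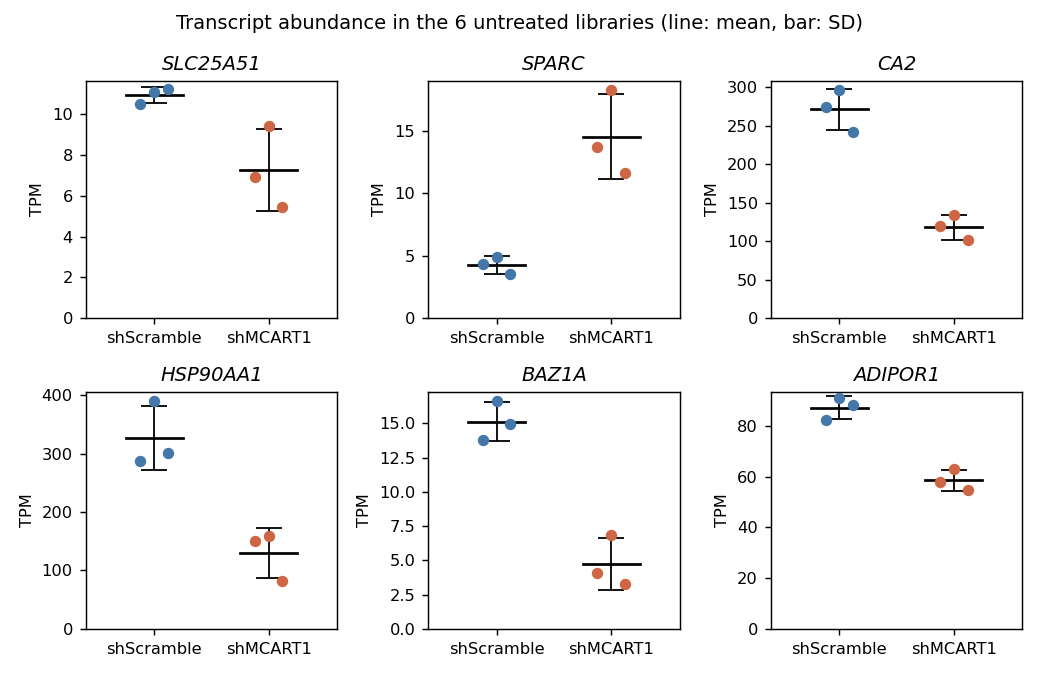
TPM of SLC25A51 and 5 core genes in each of the 6 untreated libraries (points; horizontal line, mean; bar, SD; n = 3 per group; each vertical axis starts at 0). No gene shown has overlapping groups; SPARC is higher in shMCART1 (11.6 to 18.2 TPM against 3.52 to 4.91), and the other genes, such as CA2 (100.9 to 133.7 against 242.1 to 295.9 TPM), are lower.

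By the rule for named genes, the other genes with the highest rises were IGSF1, LINC01551, GAL3ST1, DHRS2, S100A1, TMEM63C, PLPPR3, RPH3AL, SDSL, SERPING1 and RRAS. DHRS2, a short-chain dehydrogenase, was at 3.66, 3.31 and 4.22 TPM in shScramble and at 8.22, 7.09 and 7.80 TPM in shMCART1. Its groups are far apart, with a log2 change of 0.88 (limma, adjusted p = 0.0123). IGSF1, a membrane glycoprotein, had a change of 1.09, but shMCART1 replicate 3 alone stood at 10.64 TPM and the other knockdown libraries at 4.65 and 4.87 TPM. SERPING1, the C1 inhibitor of complement, changed by 0.76, and RRAS, a small GTPase of the Ras family, by 0.76 as well. SLX1A and SULT1A1 rose by 1.70 and 0.93 but have near-identical copies in the genome, and TUBA1B-AS1, with a change of 0.88, lies opposite TUBA1B, so their reads are uncertain. Without shScramble replicate 2, SULT1A1, DHRS2 and SPARC were the genes named here that stayed called with the trend removed.

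The named genes that fell most included BAZ1A, CCNG1, GMFB, PSMC6, MBNL1, HSP90AA1, CCAR1, CCNC, NMD3, TWF1, USP1, ERGIC2 and ZWILCH. BAZ1A, the accessory subunit of the ACF chromatin remodeller, went from 13.77, 16.61 and 14.94 TPM to 4.09, 6.88 and 3.24 TPM. The groups are well apart; the log2 change was -1.54 (limma, adjusted p = 0.0123) and -0.98 with the trend removed (adjusted p = 0.00455). CCNG1, cyclin G1, a target of p53, went from 80.71, 104.2 and 72.39 TPM to 35.60, 35.93 and 20.78 TPM. Again shMCART1 replicate 3 was the lowest and shScramble replicate 2 the highest, as in most of these genes. Its change was -1.47, and -0.84 with the trend removed (limma, adjusted p = 0.0123 and 0.00224). MBNL1, a splicing regulator, changed by -1.37, CCAR1, a coactivator of p53 and nuclear receptors, by -1.29, and USP1, a deubiquitinase of DNA repair, by -1.26. These 3 and BAZ1A, CCNG1 and HSP90AA1 belong to the core. GMFB, PSMC6, CCNC, NMD3, TWF1, ERGIC2 and ZWILCH lost their call with the trend removed and shScramble replicate 2 left out. The list also holds the pseudogene LSM12P1 (-2.08) and an identifier of MATR3 (ENSG00000280987, -1.57) that overlaps the main MATR3 gene (ENSG00000015479, -1.14), so reads could be split between copies.

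Among the lists of genes by function, the cytosolic heat shock chaperones had one of the lowest medians, -0.46 in the deposited values and -0.15 with the trend removed, against -0.14 and -0.01 over all genes. These proteins fold newly made and damaged proteins and are induced by the factor HSF1. Of 29 members tested, 16 fell and 1 rose (27.7% and 9.57% of all genes), and with the trend removed 10 fell and none rose. With shScramble replicate 2 also left out, 3 remained lower. HSP90AA1, the inducible cytosolic HSP90, was at 288.1, 390.5 and 301.9 TPM in shScramble and at 150.9, 159.4 and 81.18 TPM in shMCART1. All knockdown libraries lay below all controls, with a log2 change of -1.37 (limma, adjusted p = 0.0123) and of -1.03 with the trend removed (adjusted p = 0.00748). HSPA14, an HSP70 of the ribosome-associated complex, went from 22.86, 27.57 and 21.41 TPM to 11.38, 15.57 and 7.96 TPM. It changed by -1.02, and by -0.56 with the trend removed (adjusted p = 0.00832). DNAJB4 and HSPA4L, a J-domain protein and an HSP110, changed by -1.12 and -1.05. HSP90AB1, the constitutive HSP90, did not pass the test: it was at 1578.0, 1559.7 and 1672.6 TPM in shScramble and at 1503.8, 1635.7 and 1390.7 TPM in shMCART1, with overlapping groups and a log2 change of -0.09 (adjusted p = 0.440), which was 0.10 with the trend removed and under median-of-ratios scaling. HSF1 itself had a log2 change of 0.30 that did not pass the test, and of -0.0029 with the trend removed.

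**Figure D3:**
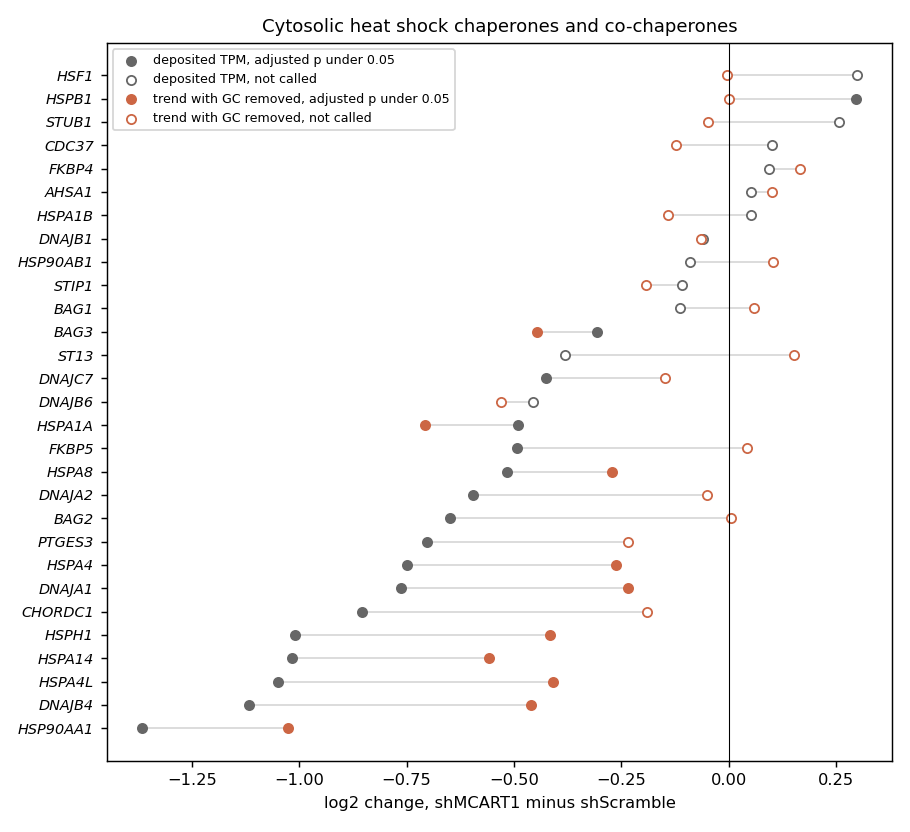
Log2 change of the 29 cytosolic heat shock chaperones and co-chaperones (horizontal axis, shMCART1 minus shScramble), for deposited TPM (grey) and with the GC trend removed (orange); filled points passed an adjusted p of 0.05. HSP90AA1 is lowest on both scales (-1.37 and -1.03), 16 grey and 10 orange points are filled to the left of 0, and HSP90AB1 (-0.09) is among the open ones.

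The promoters of these chaperones are shown because members of the list moved together in part and its 2 cytosolic HSP90 genes did not. In RefSeq promoters (GRCh38.p14, 250 bases before to 50 after the start), 24 of the 29 members had an entry. A heat shock element was searched as GAANNTTCNNGAA or its reverse complement TTCNNGAANNTTC, which together cover both strands; matches may overlap. It occurs in 172 of 35116 promoters in the table (0.490%) and in promoters of 6 members: HSP90AA1, HSP90AB1, HSPA8, DNAJA1, CHORDC1 and DNAJB6. Capitals mark the matches in 4 of them, given 5′ to 3′ on the gene's strand; HSP90AA1 spans chr14:102086995-102087294 (minus), HSP90AB1 chr6:44247693-44247992 (plus), HSPA8 chr11:123062087-123062386 (minus) and DNAJA1 chr9:33025023-33025322 (plus).
HSP90AA1: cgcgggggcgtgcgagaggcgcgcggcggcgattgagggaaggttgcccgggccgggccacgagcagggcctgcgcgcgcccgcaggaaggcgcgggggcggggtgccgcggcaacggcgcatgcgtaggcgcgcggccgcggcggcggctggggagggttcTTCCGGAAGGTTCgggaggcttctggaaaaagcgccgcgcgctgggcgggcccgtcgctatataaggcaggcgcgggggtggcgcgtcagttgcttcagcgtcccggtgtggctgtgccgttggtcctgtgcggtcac
HSP90AB1: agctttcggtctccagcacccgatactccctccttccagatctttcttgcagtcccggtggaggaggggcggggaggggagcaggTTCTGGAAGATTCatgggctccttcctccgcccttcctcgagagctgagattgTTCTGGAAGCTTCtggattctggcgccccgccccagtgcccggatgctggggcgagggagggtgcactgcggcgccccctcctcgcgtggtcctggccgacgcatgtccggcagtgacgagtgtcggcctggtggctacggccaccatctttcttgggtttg
HSPA8: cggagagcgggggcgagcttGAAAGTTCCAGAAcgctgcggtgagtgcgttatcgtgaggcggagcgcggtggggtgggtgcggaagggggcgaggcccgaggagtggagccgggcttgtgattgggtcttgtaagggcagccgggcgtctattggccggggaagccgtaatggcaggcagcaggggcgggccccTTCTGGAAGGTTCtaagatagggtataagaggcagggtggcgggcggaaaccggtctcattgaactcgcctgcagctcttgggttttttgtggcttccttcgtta
DNAJA1: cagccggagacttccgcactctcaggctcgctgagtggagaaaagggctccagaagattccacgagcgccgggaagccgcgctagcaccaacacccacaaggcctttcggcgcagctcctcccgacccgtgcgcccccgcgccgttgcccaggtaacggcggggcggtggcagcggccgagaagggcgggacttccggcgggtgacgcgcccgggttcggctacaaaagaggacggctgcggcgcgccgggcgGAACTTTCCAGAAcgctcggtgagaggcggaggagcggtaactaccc
The element is thus present both in genes that fell (HSP90AA1, HSPA8 with a log2 change of -0.52, DNAJA1 with -0.76) and in HSP90AB1, which did not pass the test. Of the other 2 genes with the element, CHORDC1 fell (-0.85) but had an adjusted p of 0.175 with the trend removed, and DNAJB6 (-0.46, adjusted p = 0.0514) did not pass. HSPA8, the constitutive HSC70, stood at 1208.1, 1414.1 and 1269.1 TPM in shScramble and at 914.9, 1127.7 and 716.1 TPM in shMCART1. DNAJA1, an HSP40 partner of it, stood at 145.6, 173.6 and 153.2 TPM and at 93.51, 119.1 and 70.04 TPM. In both, the highest knockdown library was below the lowest control; HSPA8 and DNAJA1 had an adjusted p of 0.0404 and 0.0323 with the trend removed (limma), and neither stayed called without shScramble replicate 2.

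Other folding machines fell in part. The CCT chaperonin, which folds actin and tubulin, and its partner prefoldin had 7 of 14 members lower and none higher, and 5 lower with the trend removed. For this and the following lists, the shares over all genes were 27.7% lower and 9.57% higher. With the trend removed they were 6.52% and 5.04%. CCT2 went from 229.7, 282.1 and 222.9 TPM to 137.5, 182.9 and 108.0 TPM, a log2 change of -0.80, and CCT6A, CCT8 and the prefoldin subunit VBP1 changed by -0.84, -0.82 and -0.98. In the mitochondrial matrix, the chaperonin HSPD1 (HSP60) went from 592.5, 712.0 and 592.0 TPM to 327.4, 436.8 and 252.6 TPM. Its cofactor HSPE1 (HSP10) went from 913.7, 1062.4 and 945.1 TPM to 702.8, 738.1 and 501.2 TPM. Neither gene's groups overlap, and with the trend removed their changes were -0.53 and -0.50 (limma, adjusted p = 0.0127 and 0.0156). The inner membrane proteases YME1L1 and OMA1 fell with them, by 0.89 and 0.78 on the log2 scale in the deposited values, which made 6 of 17 mitochondrial chaperones and proteases lower and 4 higher; with the trend removed 4 were lower and none higher. No member of these lists stayed called with the trend removed and shScramble replicate 2 left out. Of 39 proteasome genes 19 fell and 5 rose, and with the trend removed 5 fell and 2 rose; PSMC6, an ATPase of the regulatory particle, had the lowest change (-1.38, and -0.75 trend-removed).

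Genes of NAD+ supply and use were called at shares near those of all genes (9.57% higher and 27.7% lower). Of 14 tested genes of NAD synthesis, 1 rose and 4 fell, and with the trend removed 1 rose and 1 fell. NAMPT, which limits the salvage of nicotinamide to NAD+, was at 23.40, 28.71 and 22.56 TPM in shScramble and at 14.19, 16.60 and 10.18 TPM in shMCART1. The groups do not overlap and the log2 change was -0.84 (limma, adjusted p = 0.0126), but with the trend removed it was -0.18 (adjusted p = 0.0474). QPRT, the quinolinate phosphoribosyltransferase of synthesis from tryptophan, went the other way, from 63.80, 53.56 and 64.23 TPM to 83.23, 79.73 and 93.98 TPM. All 3 knockdown libraries were above the controls, with a change of 0.50, and 0.34 with the trend removed (limma, adjusted p = 0.0123 and 0.0126). Of 19 NAD+ consumers, 4 fell and 2 rose, and with the trend removed 3 fell; the deacetylase SIRT1 changed by -1.02, and by -0.44 with the trend removed. NNT, which couples NADH to NADPH in the matrix, changed by -0.72 but had an adjusted p of 0.391 with the trend removed. None of these genes stayed called without shScramble replicate 2.

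Among the 44 tested mitochondrial carriers other than and including SLC25A51, 10 fell and 5 rose in the deposited values, and 1 fell and 3 rose with the trend removed; in the deposited values these shares are near the 27.7% lower and 9.57% higher of all genes. The one that fell with the trend removed was SLC25A51. SLC25A36, a carrier of pyrimidine nucleotides, and SLC25A32, a folate and FAD carrier, changed by -0.91 and -0.72 in the deposited values and had adjusted p of 0.0736 and 0.191 with the trend removed (limma).

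The respiratory chain showed no common direction that both readings share. None of the 13 mRNAs encoded in mitochondrial DNA passed limma's test in the deposited values, and 0 had an unadjusted p under 0.05; their median change was -0.27, and 0.12 with the trend removed, where 1 member, MT-ND3, was called higher (0.72, adjusted p = 0.0477). MT-ND5, a subunit of complex I and the member with the lowest change, was at 528.1, 563.3 and 575.6 TPM in shScramble and at 451.4, 563.2 and 251.9 TPM in shMCART1, so that shMCART1 replicate 3 alone stood far below. Of 37 nuclear subunits of complex I, 6 rose and 7 fell, and with the trend removed 4 rose and none fell. For complexes II to V, 12 of 42 nuclear genes rose and 11 fell, and with the trend removed 13 rose (against 5.04% of all genes) and 1 fell; the list's median moved from -0.02 to 0.20. ATP5MC1, a subunit of the proton-carrying ring of ATP synthase, rose on both scales, from 936.6, 863.0 and 915.3 TPM to 1214.3, 1064.6 and 1363.3 TPM (log2 change 0.42, and 0.62 trend-removed; limma, adjusted p = 0.0123 and 0.0252). Its groups are separate. ATP5F1C, the gamma subunit of the same enzyme, fell on both scales, with changes of -0.69 and -0.26. No member of these lists stayed called without shScramble replicate 2.

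In the pathways that deliver electrons to the chain, 12 of 29 genes of the tricarboxylic acid cycle and NADH shuttles fell and 4 rose. With the trend removed 4 fell and 4 rose. Over all genes 27.7% were lower and 9.57% higher, and 6.52% and 5.04% with the trend removed. DLD, the dihydrolipoyl dehydrogenase shared by the pyruvate and 2-oxoglutarate complexes, went from 29.89, 31.68 and 31.84 TPM to 15.89, 20.43 and 8.15 TPM. The controls agree closely, and each knockdown library is lower. Its change was -1.11, and -0.49 with the trend removed (limma, adjusted p = 0.0140 and 0.0429). IDH3A, the catalytic subunit of NAD-dependent isocitrate dehydrogenase, and ME2, the NAD-dependent malic enzyme of the matrix, changed by -0.83 and -1.09, and by -0.40 and -0.52 with the trend removed. Without shScramble replicate 2, no member of this list stayed called in the deposited values. With the trend also removed, none stayed lower and 1 stayed higher. Of 23 genes of fatty acid oxidation 7 rose and 4 fell, and with the trend removed 5 rose and 2 fell. CPT1B, a carnitine palmitoyltransferase of the outer membrane, and ACADS, the short-chain acyl-CoA dehydrogenase, rose by 0.70 and 0.60, while ACADM, the medium-chain enzyme, changed by -0.84.

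Glycolysis went up more often than down, with 8 of 23 genes higher and 3 lower (9.57% and 27.7% of all genes). With the trend removed, 5 were higher and 1 lower (5.04% and 6.52% of all genes). ENO2, the neuronal enolase, was at 27.18, 22.21 and 26.14 TPM in shScramble and at 36.70, 35.14 and 39.92 TPM in shMCART1. The groups are separate, with a change of 0.55, and of 0.47 with the trend removed (limma, adjusted p = 0.0123 and 0.0134). PFKL, the liver-type phosphofructokinase, rose by 0.58 and LDHB, a lactate dehydrogenase subunit, changed by -0.75. No gene of glycolysis or fatty acid oxidation stayed called without shScramble replicate 2.

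Among 23 genes that keep and express mitochondrial DNA, 11 fell and 1 rose (27.7% and 9.57% of all genes), and with the trend removed 4 fell and 2 rose (6.52% and 5.04%); the median changes were -0.43 and -0.12. LRPPRC, which stabilises mitochondrial mRNAs, went from 49.38, 59.94 and 46.92 TPM to 25.44, 32.42 and 17.72 TPM. It is the core member of this list (change -1.05, and -0.56 trend-removed; limma, adjusted p = 0.0123 and 0.00832). TFAM, the factor that packages and transcribes mitochondrial DNA, changed by -0.94 and PNPT1, a mitochondrial exoribonuclease, by -1.10, and both kept their call with the trend removed but lost it with shScramble replicate 2 also left out. Of 78 mitochondrial ribosomal proteins, 30 fell and 11 rose, and with the trend removed 8 fell and 6 rose.

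Mitotic and chromatin genes had the other low medians. Of 39 mitotic genes, 22 fell and 2 rose (27.7% and 9.57% of all genes). With the trend removed 8 fell and 1 rose (6.52% and 5.04% of all genes). The medians were -0.47 and -0.14. CCNA2, cyclin A2, went from 45.60, 56.33 and 47.12 TPM to 22.92, 29.42 and 14.60 TPM. Controls and knockdown are apart, with a change of -1.17, and of -0.66 with the trend removed (limma, adjusted p = 0.0123 and 0.00966). CDK1, its kinase partner, changed by -1.10 and ECT2, the exchange factor that starts cytokinesis, by -1.23. One mitotic gene, MKI67, the nuclear protein used as a proliferation marker, remained lower with shScramble replicate 2 also left out; it was at 24.23, 22.91 and 26.29 TPM in shScramble and at 16.00, 20.05 and 12.94 TPM in shMCART1, a change of -0.57. Of 32 chromatin remodelling genes, 13 fell and 1 rose, and with the trend removed 7 fell and none rose, among them SMARCA5 (-0.92), the ATPase partner of BAZ1A, and HELLS (-1.06), a remodeller of DNA methylation. BAZ1A was the member that stayed called with the trend removed and shScramble replicate 2 left out. Of 46 genes of DNA replication, 20 fell and 6 rose, and the median was -0.30. With the trend removed 3 fell and 4 rose (6.52% and 5.04% of all genes), and the median was -0.05.

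Several lists that look strongly lower in the deposited values did not keep that direction. Of 25 SR proteins and spliceosome helicases, 14 fell and none rose, but with the trend removed none fell and 5 rose; SRSF1, a splicing factor, had a change of -0.74, and an adjusted p of 0.0854 with the trend removed (limma). Of 21 hnRNPs 11 fell and none rose, and with the trend removed 2 fell and 4 rose. HNRNPA2B1, which binds and sorts RNA, was at 638.1, 717.9 and 656.7 TPM in shScramble and at 443.4, 560.3 and 342.2 TPM in shMCART1. Its groups do not overlap, yet its log2 change of -0.61 (limma, adjusted p = 0.0190) came to -0.01 with the trend removed and to 0.01 with the trends on GC content and length removed. Of 35 translation initiation factors 17 fell and 1 rose, and with the trend removed 2 fell and 1 rose. These 2 were EIF5, which went from 71.87, 83.36 and 75.54 TPM to 40.87, 48.69 and 27.34 TPM, and EIF2S2, which went from 62.90, 81.90 and 64.30 TPM to 40.00, 45.32 and 28.07 TPM. Both take part in start codon selection and the delivery of initiator tRNA, neither has overlapping groups, and both belong to the core. Of 80 cytosolic ribosomal proteins, 26 rose and 18 fell, and with the trend removed 9 rose and 1 fell.

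**Figure D4:**
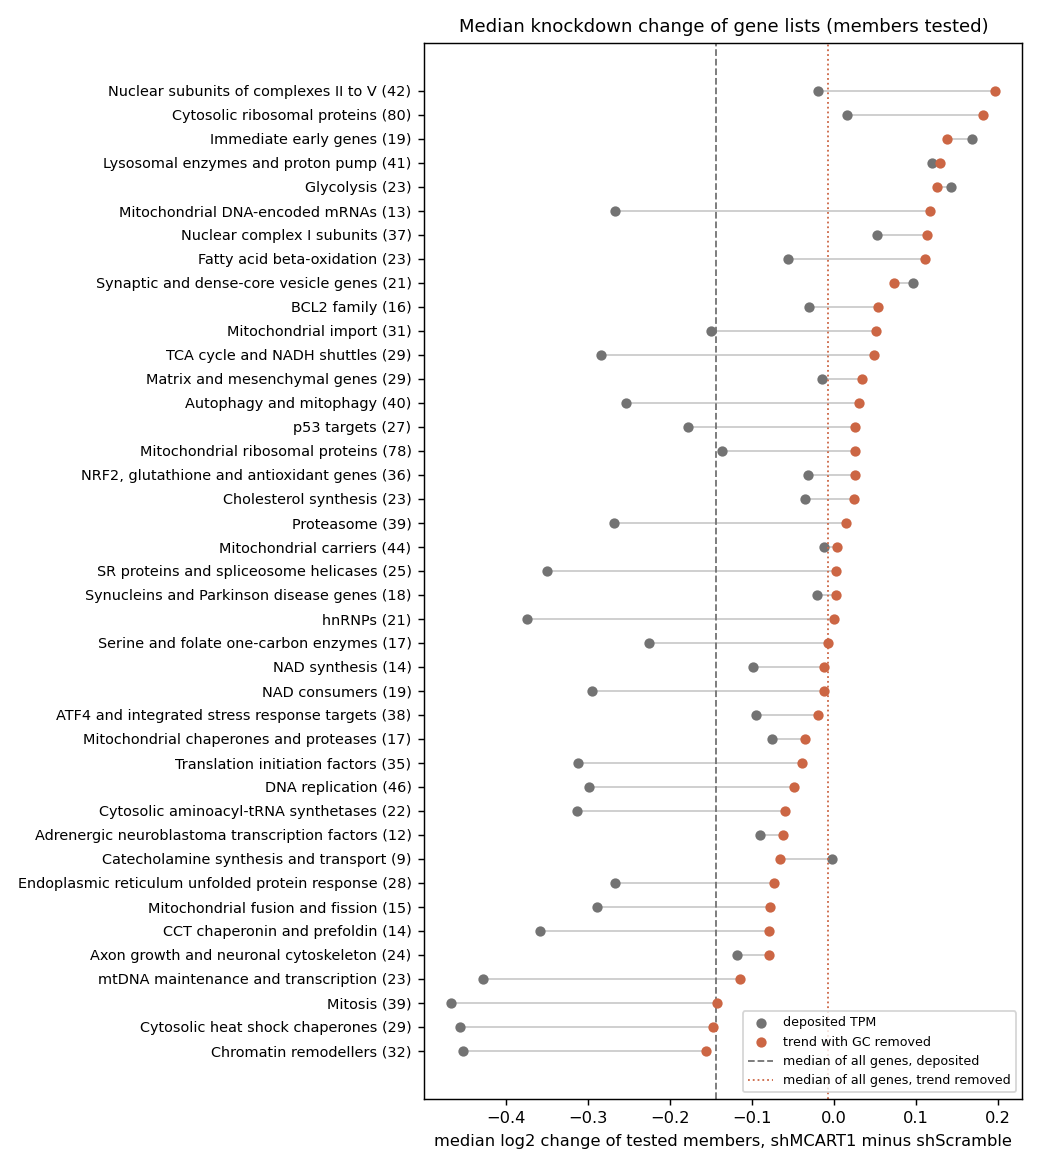
Median log2 change of the tested members of each list (number in brackets), for deposited TPM (grey) and with the GC trend removed (orange); dashed and dotted lines mark the medians of all genes, -0.14 and -0.01. Chromatin remodellers, heat shock chaperones and mitosis lie lowest on both scales (-0.45, -0.46 and -0.47 deposited), and lists such as hnRNPs (-0.37) come to the median of all genes once the trend is removed.

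Stress pathways differed in their counts. Of 28 genes of the unfolded protein response of the endoplasmic reticulum, 14 fell and none rose (27.7% and 9.57% of all genes), and with the trend removed 4 fell and 1 rose. HSP90B1, its HSP90, went from 244.1, 314.9 and 250.8 TPM to 147.4, 188.8 and 117.5 TPM. Its groups do not overlap, with a log2 change of -0.85, and of -0.30 with the trend removed (limma, adjusted p = 0.0129 and 0.0299). Of 22 cytosolic aminoacyl-tRNA synthetases 10 fell and 1 rose, and with the trend removed 3 fell and 1 rose. Of 38 targets of ATF4, the factor of the integrated stress response, 6 rose and 10 fell (9.57% and 27.7% of all genes), and with the trend removed 3 rose and 3 fell. DDIT4, an inhibitor of mTORC1, rose from 88.85, 86.70 and 129.6 TPM to 147.6, 142.8 and 157.4 TPM, although one control stood near the knockdown libraries. NARS1 and CEBPG, an aminoacyl-tRNA synthetase and a transcription factor, changed by -0.90 and -0.81. Of 36 antioxidant genes, 7 rose and 13 fell. With the trend removed, 5 of 35 rose and 2 fell (5.04% and 6.52% of all genes). The master regulator NFE2L2 (NRF2) went from 10.91, 13.42 and 10.29 TPM to 6.34, 7.13 and 4.18 TPM. Its target HMOX1, heme oxygenase 1, went from 20.99, 22.31 and 21.40 TPM to 30.89, 28.47 and 31.85 TPM. The 2 genes are separate between groups in opposite directions (log2 changes of -0.88 and 0.48; limma, adjusted p = 0.0123 and 0.0127) and both kept their call with the trend removed, at 0.0126 and 0.0396. Neither DDIT4 nor NFE2L2 nor HMOX1 stayed called in the deposited values without shScramble replicate 2.

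Matrix genes moved both ways, with 6 of 29 higher and 6 lower, and 5 higher and 2 lower with the trend removed. Beside SPARC, the collagen chain COL6A2 rose by 0.63, and ANXA1, a phospholipid-binding protein, changed by -1.12. Fibroblast markers moved in the same libraries: FBLN1 rose from 45.91, 38.78 and 44.49 TPM to 57.17, 53.21 and 68.74 TPM, and COL1A1 and COL3A1 rose by 0.44 and 0.37 (limma, adjusted p = 0.0177, 0.0431 and 0.0256). The summed level of the 10 fibroblast markers was 56.6 to 67.6 TPM in shScramble and 77.5 to 96.1 TPM in shMCART1, while COL1A2 and THY1 were at or near 0 in all 6 libraries; their part in the matrix result was not tested. Of the fibroblast markers none stayed called without shScramble replicate 2. The neuronal gene STMN2, a microtubule regulator, was at 1.32, 1.85 and 1.28 TPM in shScramble and at 0.22, 0.54 and 0.21 TPM in shMCART1, and its adjusted p of 0.0123 became 0.101 with the trend removed.

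The same knockdown under MPP+ was measured in other libraries, in a table of its own. There SLC25A51 was at 6.87, 8.38 and 8.47 TPM in shScramble and at 5.12, 5.82 and 5.06 TPM in shMCART1 (log2 change -0.49; limma, adjusted p = 0.00213). Of 12959 genes tested in both, 3694 fell without MPP+, and 1935 of these (52.4%) also fell with it, which is 60.1% of the 3221 genes lower there (24.9% of all). Of 1290 genes that rose, 543 (42.1%) also rose with MPP+, 34.7% of the 1565 higher there (12.1% of all). The overlap uses the deposited values, in which the change also followed GC content under MPP+ (rho 0.48). With the trend removed in both, 401 of 856 lower genes (46.8%) and 304 of 656 higher genes (46.3%) were called in the same direction, against 16.0% and 14.8% of all genes.

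Of the 44 lower core genes, all 44 were tested under MPP+ and 37 fell there too in the deposited values. Of the 19 higher ones 15 were tested and 8 rose, and no core gene was called in the opposite direction. With the trend removed under MPP+, the lower core genes DIS3, ACSL4, CDC27, HDGFL3 and USO1 lost this call (limma, adjusted p = 0.0679 to 0.266). SPARC stood at 7.55, 5.32 and 4.28 TPM in shScramble and at 18.59, 21.14 and 13.05 TPM in shMCART1 under MPP+, again with no overlap (log2 change 1.47; limma, adjusted p = 0.000330). CA2 stood at 65.79, 64.08 and 65.65 TPM and at 32.46, 32.66 and 33.81 TPM (log2 change -0.96, adjusted p = 4.07e-05). Both groups of libraries are tight, and levels cannot be set against those of the untreated table, which was scaled apart. For CA2 and SPARC the difference of the knockdown changes with and without MPP+ did not pass the test (difference 0.23 and -0.08; limma, adjusted p = 0.305 and 0.884). ADAMTS1 and CCN1 rose further under MPP+, with log2 changes of 2.08 and 1.71 against 0.46 and 0.39 (difference 1.62 and 1.32, adjusted p = 0.000125 and 0.0120). GAS1, a membrane protein that arrests growth, fell without MPP+ (-0.57) and had a change of 0.21 with it (difference 0.79, adjusted p = 0.00456). In all 620 of 13767 genes (4.5%) differed in this way, 286 (2.08%) with a more positive and 334 (2.43%) with a more negative change under MPP+.

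**Figure D5:**
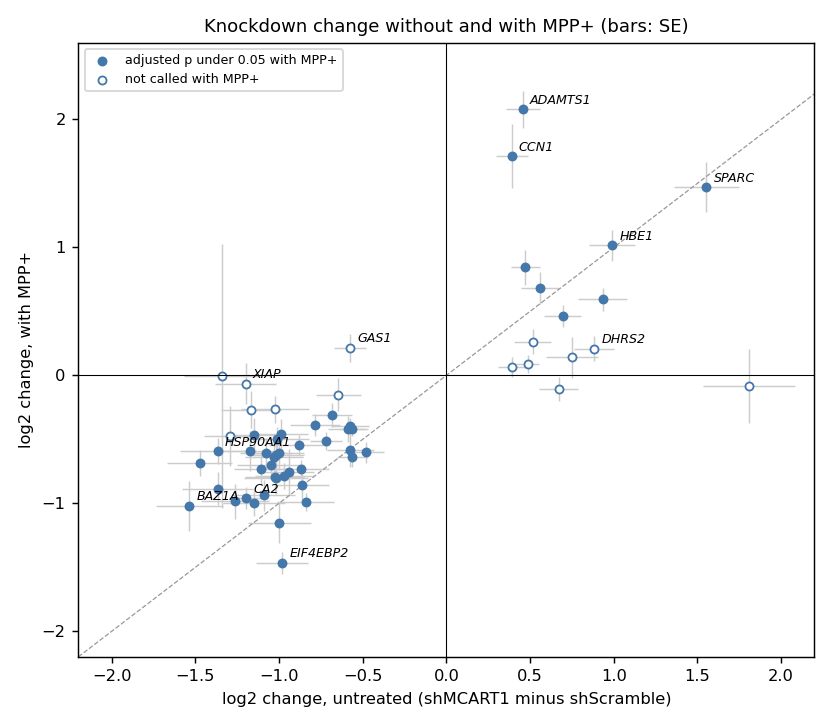
Log2 change of the core genes tested under both conditions, without MPP+ (horizontal axis) and with MPP+ (vertical axis), with bars of 1 SE; filled points passed an adjusted p of 0.05 with MPP+, and the dashed line marks equal change. Most lower genes lie below 0 on both axes, SPARC (1.55 and 1.47) and HBE1 (0.99 and 1.01) lie by the line, and ADAMTS1 (0.46 and 2.08) stands far above it.

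Overexpression in untreated cells raised SLC25A51 from a mean of 31.6 TPM in oeNC to 683.0 TPM in oeMCART1 and shares no library with the knockdown. Of the 44 lower core genes, 35 passed as higher under overexpression and 1 as lower, and with the trend removed 28 were higher and 2 lower (over all genes, 34.6% higher in the deposited values, 9.52% higher and 9.54% lower with the trend removed). Of the 19 higher core genes 5 were called lower and 1 higher, and with the trend removed 8 and 1. HSPA8 and DNAJA1, which fell in the knockdown (-0.52 and -0.76), changed by 0.77 and 1.06 in overexpression (limma, adjusted p = 0.00395 and 0.00354). CA2 changed by 0.42 (adjusted p = 0.00775), and SPARC by -0.08 (adjusted p = 0.760). The overexpression contrast also followed GC content, in the opposite sense to the knockdown (rho -0.81); the part of this in the opposed calls was measured only through the trend-removed counts above.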

How the data were processed

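RNA-seq of 24 libraries was deposited by the authors as TPM, the 12 untreated libraries in one table and the 12 with MPP+ in another. The submitters' processing notes list the builds GRCm38, mm10 and GRCh38, with no role; which aligner, counter and annotation made the values is not stated. TPM carry no information on depth. Rows without a gene identifier (25 of 63266 and 42 of 36783) were left out.

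Genes that reached 1 TPM in 3 or more of the 6 libraries compared were tested on log2(TPM + 1) with limma 3.58.1 (R 4.3.3; trended empirical Bayes, all 12 libraries of a table in the fit, so that the 4 groups share one estimate of the spread) and Benjamini-Hochberg adjustment, threshold 0.05. The median SD within a group was 0.220 in shMCART1, above the 0.136 of shScramble and the 0.0831 of oeMCART1. The script was tested on simulated data. GC content came from the longest GENCODE 29 transcript (96.6% of tested genes); the trend of each library was removed with a natural spline of 5 degrees of freedom. Alternatives covered pseudocount, filter, scaling, GC and length, libraries in the fit, weights, variance model, replicate block and each library left out.

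The members, the 45 gene lists and the alternatives were chosen with earlier results of these data known. Named genes were drawn from SLC25A51, up to 15 in each direction with the largest change among genes called in the deposited values, with the trend removed and under median-of-ratios scaling, with a mean of 5 TPM or more in the higher group and no overlap, and up to 5 per list with the smallest p among those called; other named genes were chosen after their values were seen. Some markers of the lists are not reported here. The labels do not say whether same-numbered libraries share a batch. The correlation of their deviations was -0.11, 0.27 and 0.04 for replicates 1, 2 and 3, and the main fit used no block.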

Additional observations from a re-analysis of the deposited data

Results flagged for a closer look

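For 23 of 247 genes (those the rule for named genes selects and the others named in the text), the knockdown change differed between the libraries with and without MPP+ by a test of the difference itself (limma over both tables, 24 libraries in the fit, Benjamini-Hochberg adjusted over 13767 genes). For INSIG1, which holds back cholesterol synthesis, the change was -0.55 without and 1.18 with MPP+, a difference of 1.73 (adjusted p = 7.36e-05). IDI1, an enzyme of the same pathway, had a difference of 1.24 (adjusted p = 0.00892), from -0.96 without to 0.28 with MPP+. The NAD+ salvage enzyme NAMPT had a difference of 0.77 (adjusted p = 0.0288), from -0.84 to -0.07. ERGIC2, a protein of the early secretory pathway, had a difference of 0.97 (adjusted p = 0.0368), and of 0.63 with the trend removed (adjusted p = 0.0775). Differences were negative for TMEM63C (-1.05, adjusted p = 0.0245), SDSL (-0.96, adjusted p = 0.00704) and DHRS2 (-0.67, adjusted p = 0.0159), all higher in the knockdown without MPP+. Beyond these, 9 of the 13 mRNAs encoded in mitochondrial DNA had a more positive change under MPP+ (2.08% of all genes). Among them were MT-ND4, from -0.36 to 0.62 (difference 0.98, adjusted p = 0.0171), and MT-ATP6 (difference 0.76, adjusted p = 0.0443). With the trend removed MT-ND4 kept its call (0.77, adjusted p = 0.0144), while MT-ATP6 (0.55, adjusted p = 0.1085) did not. Without MPP+, the list's median deviation from the shScramble mean was -0.76 in shMCART1 replicate 3, and -0.07 and 0.01 in replicates 1 and 2. ADAMTS1 (1.62), CCN1 (1.32) and GAS1 (0.79) are described above. The difference was also positive for the transcription factor KLF6 (1.44, adjusted p = 0.00122), the axonal protein GAP43 (0.80, adjusted p = 0.00859), GLRX (0.58, adjusted p = 0.00960), NDUFS5 (0.46, adjusted p = 0.00978) and MPC1 (0.35, adjusted p = 0.0388). It was negative for SHMT2 (-0.48, adjusted p = 0.0362), ETFB (-0.44, adjusted p = 0.0240) and VAMP2 (-0.43, adjusted p = 0.0485). It was negative as well for MTHFS (-0.82, adjusted p = 0.0129), PHGDH (-0.41, adjusted p = 0.0443) and KRT8 (-0.39, adjusted p = 0.0453).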

How the results depend on the processing

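Without MPP+, the deposited values gave 5171 genes that passed an adjusted p of 0.05 (limma; 7036 had an unadjusted p under 0.05). The count was 2017 with no filter on low values, 1551 with the trend on GC content removed, 1670 with the trends on GC content and transcript length removed, 1788 with only the groups compared in the fit and 9826 with library weights, whose estimation stopped before its tolerance was reached. Leaving out each library in turn gave 2 (without shScramble replicate 2) to 7229 (without shMCART1 replicate 2). Settings chosen after seeing the data removed the GC trend and left out 1 library: 589, 92 and 722 genes without shScramble replicates 1, 2 and 3, and 525, 2956 and 260 without shMCART1 replicates 1, 2 and 3. With the GC trend removed and only the groups compared in the fit, 5 passed. Fewer libraries or genes enter some of these fits; otherwise the cause was not tested. The split was 1329 higher and 3842 lower in the deposited values, 2922 and 3106 under median-of-ratios scaling, 2762 and 3021 under quantile normalization.

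The log2 change of SLC25A51 lay between -0.74 and -0.39 when each library was left out. It no longer passed with only the groups compared in the fit (-0.56, adjusted p = 0.0664), nor with the GC trend removed without shScramble replicate 2 (-0.46), without shMCART1 replicate 1 (-0.45), without shMCART1 replicate 3 (-0.37) or with only the groups compared (-0.48). Of 231 genes called in the deposited values and examined singly (selected by the rule for named genes, or named in the text), 229 lost their call without shScramble replicate 2, 116 with the GC trend removed, 109 with GC and length trends removed, 92 without shMCART1 replicate 3, 62 with only the groups compared and 61 with no filter. The call was lost by 6 under median-of-ratios scaling, 4 under quantile normalization and 3 with a pseudocount of 0.1.

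The log2 change took the opposite sign in 13 of these 231 genes with the GC trend removed (with and without a replicate block) and in 14 with GC and length trends removed, and 0 of them were called in that direction. With the GC trend removed it was 0.032 for NADK2, 0.11 for NDUFV2, 0.070 for NDUFA9, 0.11 for DNAJC19, 0.087 for TIMM8A, 0.11 for DNAJB11, 0.044 for POMP, 0.026 for RPS6, 0.0028 for SRSF6, 0.068 for HNRNPR, 0.078 for SYT1, -0.0012 for HTRA2 and 0.026 for ATG4C. With GC and length trends removed it was 0.034 for NADK2, 0.062 for NDUFV2, 0.098 for NDUFA9, 0.086 for DNAJC19, 0.067 for TIMM8A, 0.13 for DNAJB11, 0.026 for POMP, 0.0046 for RPS6, 0.021 for SRSF6, 0.014 for HNRNPA2B1, 0.094 for HNRNPR, 0.10 for SYT1, -0.015 for HTRA2 and 0.0065 for ATG4C. Genes that did not pass in the deposited values changed sign as well. With the GC trend removed these were MT-ND4 (0.031), MT-ND6 (0.12), MT-ATP6 (0.047), HLA-DRA (0.17), HSF1 (-0.0029), HAND2 (-0.036) and HSP90AB1 (0.10). With GC and length trends removed they were MT-ND4 (0.014), HLA-DRA (0.16), HAND2 (-0.048) and HSP90AB1 (0.089). Median-of-ratios scaling gave 0.10 for HLA-DRA, 0.10 for HSP90AB1 and 0.080 for GATA3. Quantile normalization gave 0.19 for HLA-DRA, 0.0090 for NCAM1 and 0.18 for GATA3. Library weights gave 0.065 for HLA-DRA. With each library left out, the value ran from -0.20 to 0.011 for GATA3 and from -0.14 to 0.060 for HLA-DRA.

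With MPP+, 4963 genes passed, and 3469 to 4605 with each library left out. The overexpression count of 6950 became 2559 with the GC trend removed, 2686 with GC and length trends removed, 10984 with library weights and 4090 to 7563 with each library left out. The 620 genes whose knockdown change differed with MPP+ became 949 under quantile normalization, 1071 with the GC trend removed, 1182 with GC and length trends removed, 117 with only the groups compared, 4571 with library weights and 268 to 2613 with each library left out.

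The deviations of same-numbered libraries were correlated at -0.11, 0.27 and 0.04 for replicates 1, 2 and 3, and whether they share a batch was not tested. A replicate block gave 6337 genes without MPP+, 4691 with it and 1127 for the difference, and SLC25A51 stayed at -0.56 (adjusted p = 0.00787). The replicate block with the GC trend removed gave 2176 genes for the knockdown, 2955 for overexpression and 1353 for the difference.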

Other observations

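Cholesterol synthesis, a pathway the account above leaves aside, had 9 of 23 tested genes lower and 2 higher in shMCART1 without MPP+, and 5 lower and 1 higher with the GC trend removed (27.7% lower and 9.57% higher over all genes, 6.52% and 5.04% with the trend removed). INSIG1, which retains the SREBP activator in the endoplasmic reticulum, stood at 71.89, 76.42 and 70.84 TPM in shScramble and at 50.15, 55.43 and 44.08 TPM in shMCART1. Its groups do not overlap, with a log2 change of -0.55 (limma, adjusted p = 0.0123). IDI1, the isopentenyl diphosphate isomerase, went from 37.01, 47.86 and 36.85 TPM to 22.98, 24.83 and 14.30 TPM, and ACAT2, a cytosolic thiolase, changed by -0.39. All 3 genes kept their call with the trend removed, and each lost it in the deposited values without shScramble replicate 2 (adjusted p = 0.0684, 0.0698 and 0.0695). Under MPP+ the same list had 9 of 23 genes higher and 3 lower in the deposited values (11.6% and 23.5% of all genes tested there).

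Of 24 tested genes of axon growth and the neuronal cytoskeleton, 8 fell and none rose (against 27.7% and 9.57% of all genes), and with the trend removed 4 fell and 1 rose. The neurofilament chain NEFL was at 17.59, 17.92 and 17.12 TPM in shScramble and at 12.47, 14.66 and 10.38 TPM in shMCART1. The intermediate filament INA was at 13.31, 13.64 and 15.43 TPM and at 8.37, 11.82 and 7.69 TPM. In both genes every knockdown library was below every control, and neither stayed called without shScramble replicate 2 (limma, adjusted p = 0.0796 and 0.0765). Lysosomal enzymes and proton pump subunits had 10 of 41 members higher and 9 lower, and 6 higher and 3 lower with the trend removed.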
